A study of Homo sapiens with 6 samples.

Results

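The genes examined here encode the ephrin, plexin, neuropilin, Slit, netrin and UNC5 families of guidance cues and receptors. They were chosen by gene symbol alone, from the platform's probe annotation, with antisense transcripts left out. 48 of the 14884 genes named on the array met that rule, each with 1 probe set. 45 of them belong to the families: 17 ligands (8 ephrins, 3 Slits and 6 netrins) and 28 receptors (13 Eph receptors, 9 plexins, 2 neuropilins and 4 UNC5 receptors). The other 3 matched by spelling only. UNC50 is a membrane protein of another kind, UNC5CL lacks the netrin-binding part of the UNC5 receptors, and SLIT2-IT1 is a non-coding transcript from an intron of SLIT2. The pattern also covers the semaphorins, the ligands of plexins and neuropilins, and the Robo receptors, which bind Slits. Their genes, and EPHB2 among the Eph receptors, were not analysed here.

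Guidance cues steer cells and axons by contact or from a distance. Ephrins are held in the membrane, A class by a lipid anchor and B class by a transmembrane segment, and they signal to Eph receptor tyrosine kinases on a touching cell. Semaphorins act through plexins, with neuropilins as co-receptors, Slits through Robo receptors, and secreted netrins through DCC, neogenin and UNC5 receptors. All of these routes act on the actin cytoskeleton, and in tumour cells they are known for effects on adhesion, migration and contact repulsion.

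Total RNA came from Hs578T, an established cell line from a human breast tumour with mesenchymal traits, 48 h after transfected cells had been moved to a new plate. The siCSRP2 group (3 arrays) received small interfering RNA against CSRP2, an actin-bundling LIM domain protein, and the siControl group (3 arrays) received a non-targeting RNA. Both groups were transfected, and the use of 1 line limits what they model. In RNA from bulk culture, fewer cells with a transcript and less of it per cell cannot be told apart. Each array gave 1 log2 intensity per probe set, and the comparison asks which transcripts differ after transfection with the CSRP2 siRNA.

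CSRP2 itself measured 3.25, 3.76 and 4.26 on the siCSRP2 arrays, against 3.69, 4.01 and 4.35 on the siControl arrays. The groups overlapped, and the log2 difference of -0.26 (SE 0.26, 95% interval -0.84 to 0.32) had a limma adjusted p of 0.583. The siCSRP2 array was the lower one in 3 of 3 pairs of equal number (-0.44, -0.24 and -0.09), and a fit blocked on that number gave an adjusted p of 0.188. CSRP2 did not pass in either fit, and every siCSRP2 value is that of an array so labelled. Of the markers of a mesenchymal line, vimentin (VIM) averaged 7.22 ± 0.23 on siCSRP2 and 8.04 ± 0.11 on siControl arrays (SD, n = 3 each). The oestrogen receptor gene ESR1 averaged 2.76 ± 0.20 and 2.57 ± 0.08, both under 2.99, the median over all genes. Of the other epithelial and luminal markers, CLDN3 (4.15 and 3.82), GATA3 (3.83 and 3.65) and EPCAM (3.34 and 3.21) averaged above that median in both groups. CLDN4, FOXA1, KRT19 and PGR averaged below it. 4 of the 6 mesenchymal markers measured (AXL, FN1, SNAI2 and VIM) fell in siCSRP2 cells, where 12.1% of all genes with a group mean above the median fell. ZEB1 (-0.09) and ZEB2 (0.04) did not pass. None of the 8 epithelial and luminal markers passed (1 was higher and none lower at an unadjusted p under 0.05 by limma). Whether the falls of these markers and the values below are linked was not tested.

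Among the guidance genes, EPHA4 rose in siCSRP2 cells and 7 fell: the ligands SLIT3, EFNA5 and EFNA4, and the receptors EPHB6, NRP1, EPHA3 and UNC5D. The rise of EPHA4 was 2.07-fold, and the falls ran from 1.44-fold (UNC5D, EPHA3) to 1.78-fold (SLIT3). With the replicate number as a block, which the data but not the labels support as a pairing, the plexins PLXNA1 and PLXND1 and the ephrin EFNB3 also fell, for 10 falls and 1 rise. The other 37 genes did not pass in either fit, with log2 differences of -0.42 (EFNA3) to 0.23 (EPHA2). The plot of all differences shows that genes passing the test sat among relatives that did not pass in every family with more than 1 call.

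Falls were common in the whole table. The 7 falls are 14.6% of the 48 genes, where 6.54% of all genes fell, and the 1 rise is 2.08%, where 0.8% of all genes rose (limma, adjusted p under 0.05). With the replicate block the shares were 20.8% that fell and 2.08% that rose, beside 13.1% and 2.67% of all genes. The groups did not overlap for 9 guidance genes that were lower (18.8%) and 3 that were higher (6.25%), beside 16.2% and 11.5% of all genes, so neither count departs far from the background. The median log2 difference was -0.03 over the 48 genes and 0.02 over all genes. By the mean over the 6 arrays, 25 of the 48 genes lay in the brighter 50% of all genes, and these held all of the 8 calls but EPHA3. Calls lay in bright genes over the whole table too. The 8039 genes with a group mean above the median held 970 of the 974 falls and 110 of the 119 rises. Among these, 12.1% fell and 1.37% rose, beside 26.9% and 3.85% of the 26 such guidance genes. With the block the shares were 24% and 4.58% of all such genes, beside 38.5% and 3.85% of the guidance genes. Over all probe sets, the median intensity was at least 2.800 on the siCSRP2 arrays and at most 2.759 on the siControl arrays. The SD across probe sets was at most 1.317 and at least 1.352, so values spread less on the siCSRP2 arrays. Of the 26 brighter guidance genes, 20 had a difference below 0, and of the other 22, 16 had one above 0. How much of the falls of bright genes comes from this narrower spread was not tested.

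**Figure D1:**
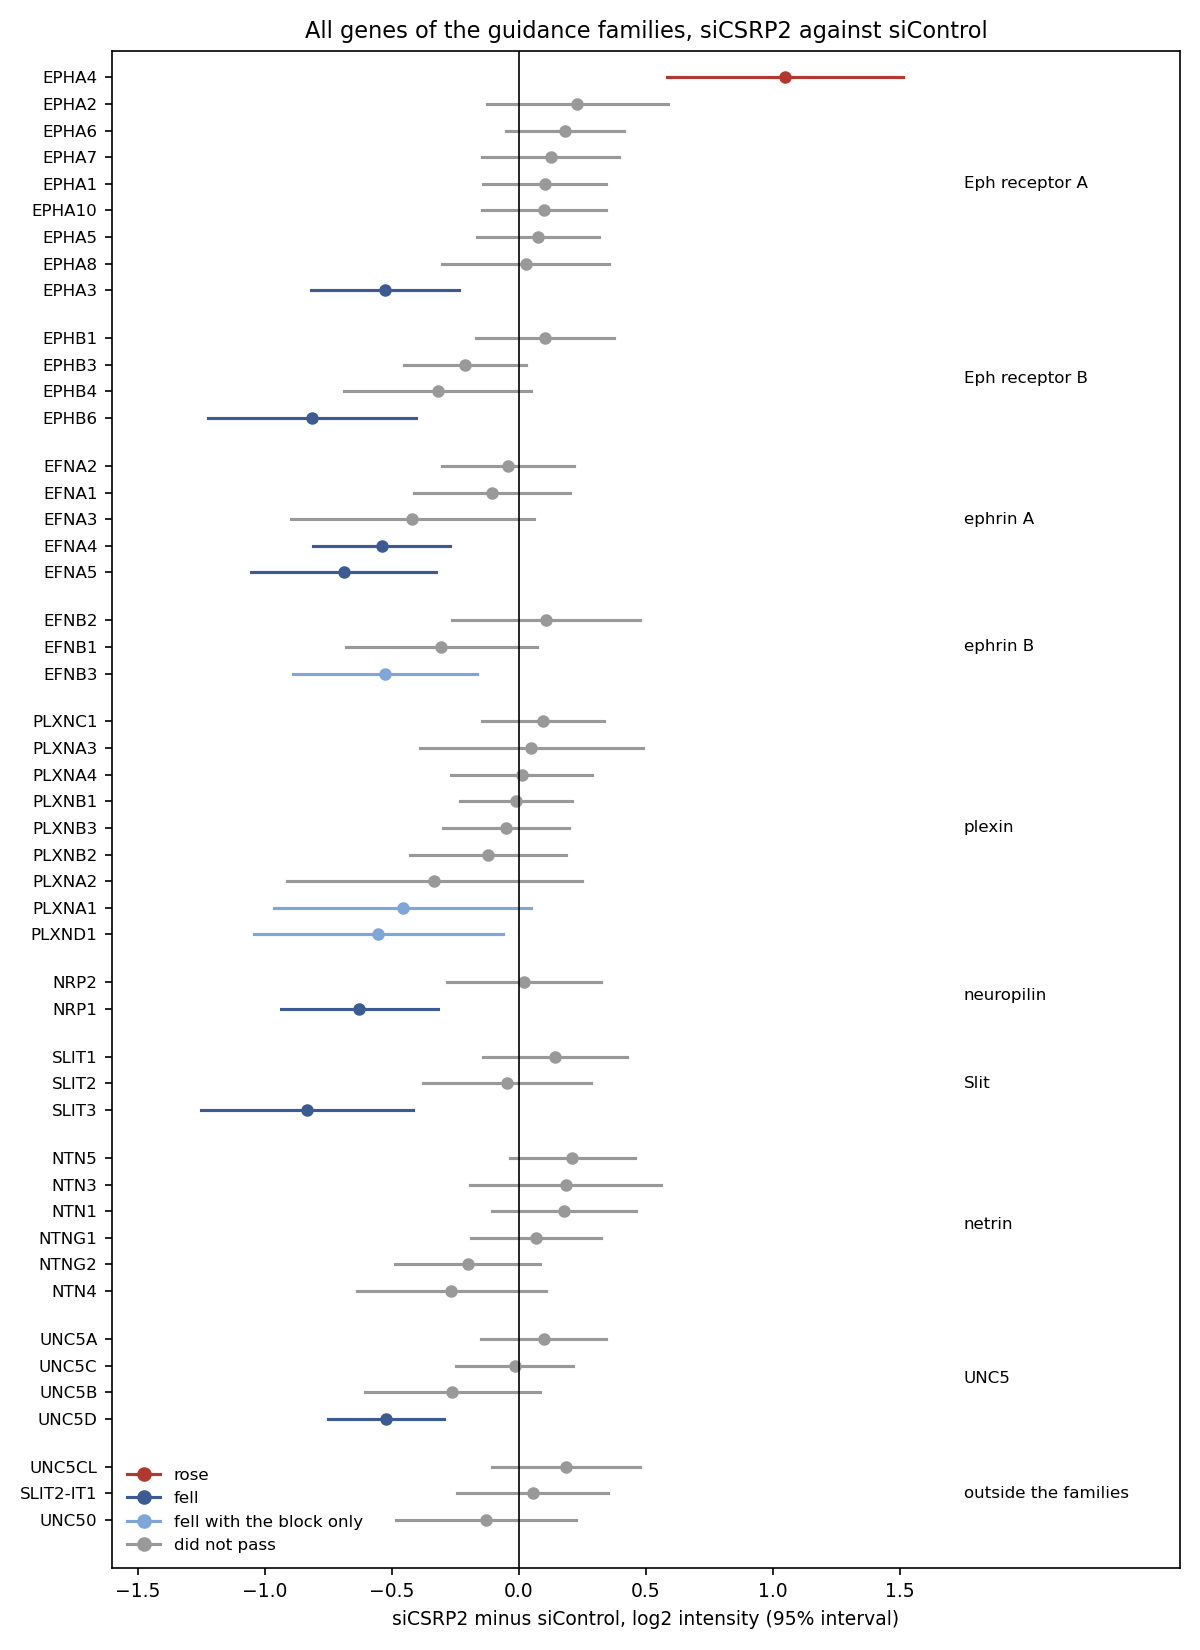
Log2 difference in intensity, siCSRP2 minus siControl, for each of the 48 genes (points, with 95% intervals from the fit without the block), grouped by family and ordered by difference within each. Of the 22 genes to the right of 0, EPHA4 at 1.05 is the one that passed, and the 7 genes that fell lie between -0.83 and -0.52.

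The outermost starts of 4 of these genes are shown so that a promoter of EPHA4, the gene that rose, can be read beside those of SLIT3, EFNA5 and EFNA4, which fell. Each run gives the 250 bases before the outermost RefSeq start (GRCh38.p14), 5′ to 3′ on the gene's strand. Capitals mark the word GGGCGG, the core of the GC box bound by SP1-type factors, or its reverse complement.
EPHA4, chr2:221574203-221574452, minus strand: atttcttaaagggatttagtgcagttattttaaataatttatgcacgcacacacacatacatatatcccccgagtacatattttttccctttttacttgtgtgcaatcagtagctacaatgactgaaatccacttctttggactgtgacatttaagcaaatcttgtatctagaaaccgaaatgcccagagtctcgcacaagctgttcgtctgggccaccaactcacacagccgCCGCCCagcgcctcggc
SLIT3, chr5:169301140-169301389, minus strand: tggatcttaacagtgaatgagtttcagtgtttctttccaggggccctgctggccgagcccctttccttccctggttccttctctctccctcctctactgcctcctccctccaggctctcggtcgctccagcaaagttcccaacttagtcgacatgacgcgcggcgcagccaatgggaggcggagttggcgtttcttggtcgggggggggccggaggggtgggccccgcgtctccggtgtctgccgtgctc
EFNA5, chr5:107670938-107671187, minus strand: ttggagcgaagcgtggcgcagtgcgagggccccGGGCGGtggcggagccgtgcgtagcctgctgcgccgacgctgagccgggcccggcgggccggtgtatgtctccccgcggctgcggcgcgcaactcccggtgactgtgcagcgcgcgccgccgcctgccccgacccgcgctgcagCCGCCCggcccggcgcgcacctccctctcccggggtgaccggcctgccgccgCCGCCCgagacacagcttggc
EFNA4, chr1:155063490-155063739, plus strand: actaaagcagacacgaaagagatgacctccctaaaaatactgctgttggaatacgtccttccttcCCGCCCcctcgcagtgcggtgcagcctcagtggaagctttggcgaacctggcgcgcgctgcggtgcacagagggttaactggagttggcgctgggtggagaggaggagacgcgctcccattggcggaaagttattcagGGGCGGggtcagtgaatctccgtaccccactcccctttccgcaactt
The EPHA4 stretch is 43.2% G and C, against 62.8% in SLIT3, 79.6% in EFNA5 and 58.4% in EFNA4. EPHA4 has 2 RefSeq starts, and the stretch printed is that of the outermost. The window of 300 bases at its other start is 74.3% G and C, against 64.7% in SLIT3, 78% in EFNA5 and 58.3% in EFNA4. The printed EPHA4 stretch holds 1 GC box core, EFNA5 holds 3 and EFNA4 holds 2. That of SLIT3 lies in the 50 bases after the start, which are not printed. RefSeq windows of 300 bases (250 before to 50 after a start) were at hand for 39 of the 48 genes, 49 windows in all. On either strand GGGCGG occurred in 87.8% of these windows, against 56.3% of the windows of protein-coding genes and 45.0% of all windows. TATAAA occurred in 4.08%, TGANTCA in 2.04%, GGAATG in 8.16% and CACGTG in 2.04%, which are 2, 1, 4 and 1 of the 49 windows. The shares were 9.47%, 6.15%, 12.2% and 8.34% in windows of protein-coding genes. In all windows they were 11.5%, 7.71%, 14.0% and 7.26%. Of the 8 genes that passed, 6 had a window, and all of them but EPHA3 held GGGCGG, the gene that rose and those that fell alike. These matches are descriptions of letters, not of bound sites.

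Receptors of the Eph family showed changes in both directions. EPHA4, a receptor that binds ephrins of both classes, measured 4.59, 5.40 and 5.30 on siCSRP2 arrays, against 3.95, 4.04 and 4.16 on siControl arrays. All 3 siCSRP2 arrays lay above the highest siControl array, and siCSRP2 1 lay nearest to the controls. The log2 difference was 1.05 (SE 0.20, 95% interval 0.58 to 1.51, limma adjusted p = 0.0227, and 0.00396 with the replicate block), and the siCSRP2 array was higher in 3 of 3 pairs of equal number.

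EPHB6, a member whose kinase domain is inactive, measured 3.44, 3.61 and 3.14 on siCSRP2 arrays and 4.20, 4.52 and 3.91 on siControl arrays. The groups did not overlap, with a gap of 0.31 between the nearest arrays. The difference was -0.81 (SE 0.18, limma adjusted p = 0.0331, and 0.00308 with the block). EPHA3, whose best-known partner is ephrin-A5, measured 2.65, 2.64 and 2.80 on siCSRP2 arrays, against 3.10, 3.45 and 3.12 on siControl arrays. Its mean over the 6 arrays lay just below the middle of all genes (percentile 48.8). It fell by 0.53 on the log2 scale (SE 0.13, limma adjusted p = 0.0449, and 0.0284 with the block), the weakest call of the 8.

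The other 10 Eph receptors did not pass the test. EPHA2, a receptor widely studied in breast cancer lines, averaged 5.27 ± 0.03 on siCSRP2 and 5.04 ± 0.31 on siControl arrays (SD, n = 3 each), a difference of 0.23 (95% interval -0.13 to 0.59, adjusted p = 0.417 by limma). EPHB4, the receptor of ephrin-B2, averaged 4.25 ± 0.20 and 4.57 ± 0.26, a difference of -0.32 (limma adjusted p = 0.276, and 0.103 with the block). All 3 pairs of equal number had the lower value in siCSRP2 cells, although the groups overlapped. EPHB3 measured 2.21, 2.08 and 2.17 on siCSRP2 arrays, against 2.45, 2.28 and 2.37 on siControl arrays, values near the bottom of all genes (percentile 4.59). These groups did not overlap, but the difference of -0.21 did not pass (limma adjusted p = 0.267). EPHA1, EPHA5, EPHA6, EPHA7, EPHA8, EPHA10 and EPHB1 lay below the median of gene means in both groups, with differences between 0.03 and 0.18, and EPHA6 alone of these had groups that did not overlap.

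Among the ephrins, 2 of the 5 A class genes fell. EFNA5, which encodes ephrin-A5, a ligand of EPHA3 and EPHA4, measured 4.27, 4.26 and 4.25 on siCSRP2 arrays. On the siControl arrays it measured 5.14, 5.13 and 4.58. The siCSRP2 arrays were nearly equal, and siControl 3 lay closer to them than to the other controls. EFNA5 fell by 0.69 (SE 0.16, limma adjusted p = 0.0381, and 0.0136 with the block).

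EFNA4 measured 3.38, 3.28 and 3.11 on siCSRP2 arrays, against 3.82, 3.90 and 3.68 on siControl arrays. No array crossed between the groups, and the gene fell by 0.54 (SE 0.12, limma adjusted p = 0.0330, and 0.0134 with the block). In RefSeq's gene order EFNA4, EFNA3 and EFNA1 follow each other on chromosome 1 with no other protein-coding gene between their starts. EFNA3 measured 3.77, 2.94 and 2.99 on siCSRP2 arrays and 3.62, 3.74 and 3.60 on siControl arrays, so that siCSRP2 1 lay above every control while both other siCSRP2 arrays lay below. Its difference of -0.42 did not pass (limma adjusted p = 0.270), except without siCSRP2 1. EFNA1 differed by -0.11 (adjusted p = 0.673 by limma) and EFNA2, dim on every array, by -0.04 (adjusted p = 0.851 by limma).

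Of the B class, EFNB3 measured 3.25, 3.03 and 2.79 on siCSRP2 arrays, against 3.50, 3.79 and 3.36 on siControl arrays. The groups did not overlap, yet the gap between the nearest arrays was 0.11, and the difference of -0.53 passed with the block (limma adjusted p = 0.0284) and not without it (0.0830). EFNB1 averaged 3.19 ± 0.33 on siCSRP2 and 3.49 ± 0.08 on siControl arrays, and EFNB2, the ligand of EPHB4, averaged 3.95 ± 0.31 and 3.84 ± 0.13 (SD, n = 3 each). Neither passed (limma adjusted p = 0.307 and 0.736), and in both the groups overlapped.

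**Figure D2:**
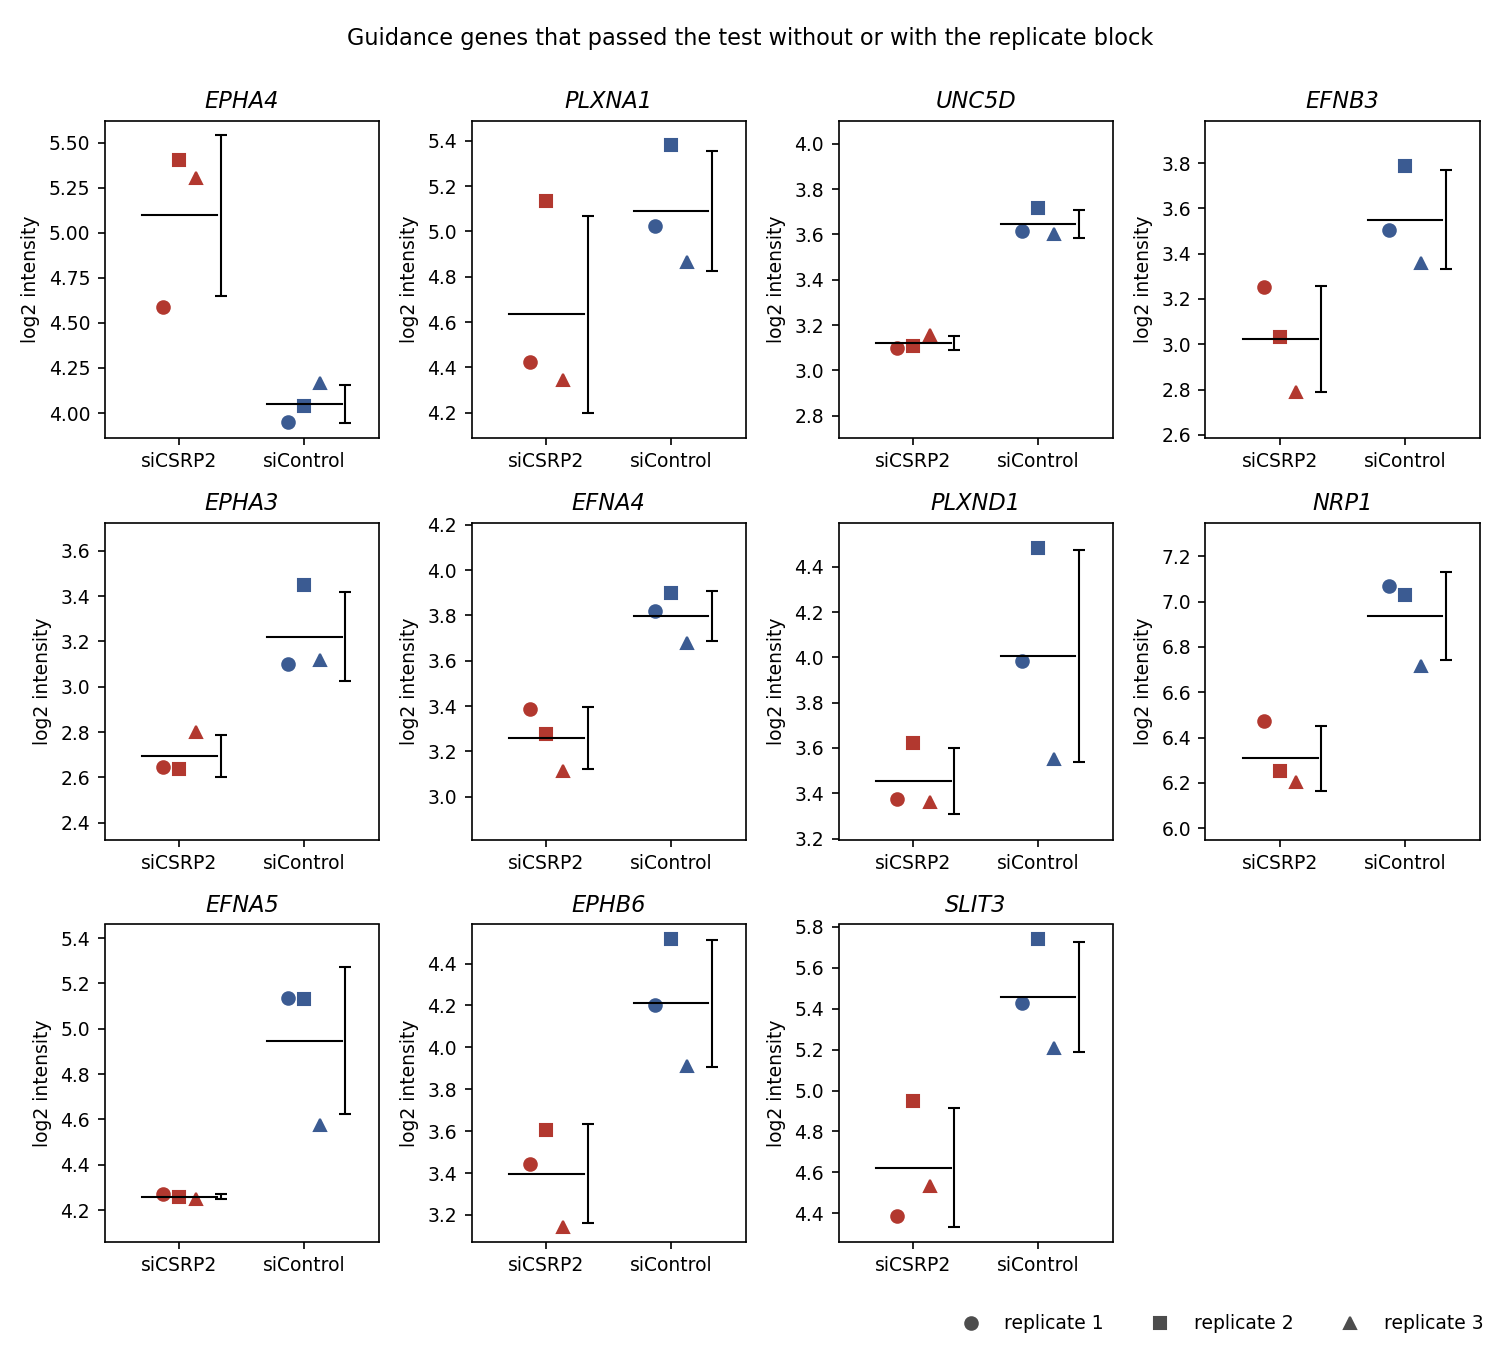
Log2 intensity of the 11 guidance genes that passed with or without the block, on each siCSRP2 array (left) and siControl array (right). Symbols mark the replicate number, lines the group mean and bars 1 SD (n = 3), and each panel has its own axis. The groups overlap for PLXNA1 and PLXND1 and for none of the other 9.

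NRP1 encodes neuropilin-1, a co-receptor for class 3 semaphorins that also binds VEGF-A. It measured 6.47, 6.25 and 6.20 on siCSRP2 arrays, against 7.07, 7.03 and 6.71 on siControl arrays. All siCSRP2 values lay below all controls, and NRP1 fell 1.55-fold (difference -0.63, SE 0.14, limma adjusted p = 0.0309, and 0.00856 with the block). NRP2, its relative, averaged 3.18 ± 0.07 and 3.16 ± 0.22 (SD, n = 3 each), with a difference of 0.02 and an interval of -0.28 to 0.32.

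None of the 9 plexins, the signalling partners of neuropilins, passed without the block (1 was lower and none higher at an unadjusted p under 0.05). PLXND1, a receptor for semaphorin 3E, measured 3.38, 3.62 and 3.36 on siCSRP2 arrays, against 3.98, 4.48 and 3.55 on siControl arrays. siControl 3 lay below siCSRP2 2, so the groups overlapped, but each siCSRP2 array was below its own-numbered control. The difference of -0.55 had a limma adjusted p of 0.159, and 0.0362 with the block. PLXNA1, which pairs with neuropilins, measured 4.42, 5.13 and 4.34 on siCSRP2 arrays and 5.02, 5.38 and 4.86 on siControl arrays. Replicate 2 was the highest array of both groups, and the difference of -0.46 passed with the block alone (limma adjusted p = 0.0353, against 0.258 without it). After quantile normalization with the block, neither PLXND1 nor PLXNA1 passed (limma adjusted p = 0.0618 and 0.146). PLXNA2 was lower in 3 of 3 pairs (-0.33, limma adjusted p = 0.472, and 0.0746 with the block). PLXNB2 averaged 5.55 ± 0.23 and 5.67 ± 0.04, and PLXNA3 3.76 ± 0.28 and 3.71 ± 0.32 (SD, n = 3 each). PLXNA4, PLXNB1, PLXNB3 and PLXNC1 were dim, with differences of -0.05 to 0.09.

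SLIT3, a secreted ligand of Robo receptors, had the lowest difference of the 48 genes. It measured 4.39, 4.95 and 4.53 on siCSRP2 arrays, against 5.43, 5.74 and 5.21 on siControl arrays. The groups did not overlap, with siCSRP2 2 nearest to siControl 3. SLIT3 fell 1.78-fold (difference -0.83, SE 0.18, 95% interval -1.25 to -0.42, limma adjusted p = 0.0328, and 0.00370 with the block). SLIT1 and SLIT2 lay below the median of gene means in both groups and differed by 0.14 and -0.05.

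Of the netrin system, UNC5D fell. It encodes a receptor for netrins that also binds the adhesion protein FLRT2, and it measured 3.10, 3.11 and 3.16 on siCSRP2 arrays, against 3.62, 3.72 and 3.60 on siControl arrays. Both groups were tight and lay 0.45 apart at their nearest arrays, the widest gap of the 8 genes. The fall was 0.52 on the log2 scale (SE 0.10, limma adjusted p = 0.0215, the smallest of the 48, and 0.0146 with the block). UNC5B averaged 4.84 ± 0.23 on siCSRP2 and 5.10 ± 0.19 on siControl arrays (SD, n = 3 each) and was lower in 3 of 3 pairs, but did not pass (difference -0.26, limma adjusted p = 0.338, and 0.154 with the block). UNC5A and UNC5C were dim and differed by 0.10 and -0.02.

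No netrin passed in either fit, and none had an unadjusted p under 0.05 by limma without the block. NTN4, a netrin of basement membranes, measured 5.89, 6.36 and 6.39 on siCSRP2 arrays, against 6.69, 6.42 and 6.33 on siControl arrays. Only siCSRP2 1 lay clearly below the controls, and the difference of -0.27 had an interval of -0.64 to 0.11. NTN1 differed by 0.18, NTN3 by 0.18, NTN5 by 0.21, NTNG1 by 0.07 and NTNG2 by -0.20, with limma adjusted p from 0.281 (NTN5) to 0.757 (NTNG1). The groups did not overlap for NTN5. The genes outside the families differed by -0.13 (UNC50), 0.19 (UNC5CL) and 0.05 (SLIT2-IT1), and none passed.

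The number of calls varied with which array was left out. Without siCSRP2 2, siCSRP2 3, siControl 1 or siControl 2, none of the 48 genes passed (limma). In these fits the calls over all genes also dropped, to between 91 and 285, against 1093. At an unadjusted p under 0.05, 8 to 11 of the 48 were lower and 1 higher in these fits (limma). With all arrays 9 of the 48 were lower and 1 higher at that threshold, where 2583 and 940 of all 14884 genes were. Without siCSRP2 1, EPHA4 rose and 4 genes fell (EFNA3, EFNA4, NRP1 and UNC5D), and without siControl 3, EPHA4 rose and 9 fell, with EFNB3 and PLXND1 joining the 7. siControl 3 was the control nearest to the siCSRP2 mean for 7 of the 8 genes, all but EPHA3, and for 79.4% of all genes past the threshold. The sign of each of the 8 differences held in all 6 such fits. After quantile normalization or cyclic loess, SLIT3, EFNA5 and NRP1 did not pass (limma adjusted p up to 0.0563, 0.0833 and 0.0833), and EFNA4 did not with a trended robust variance (0.0514).

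**Figure D3:**
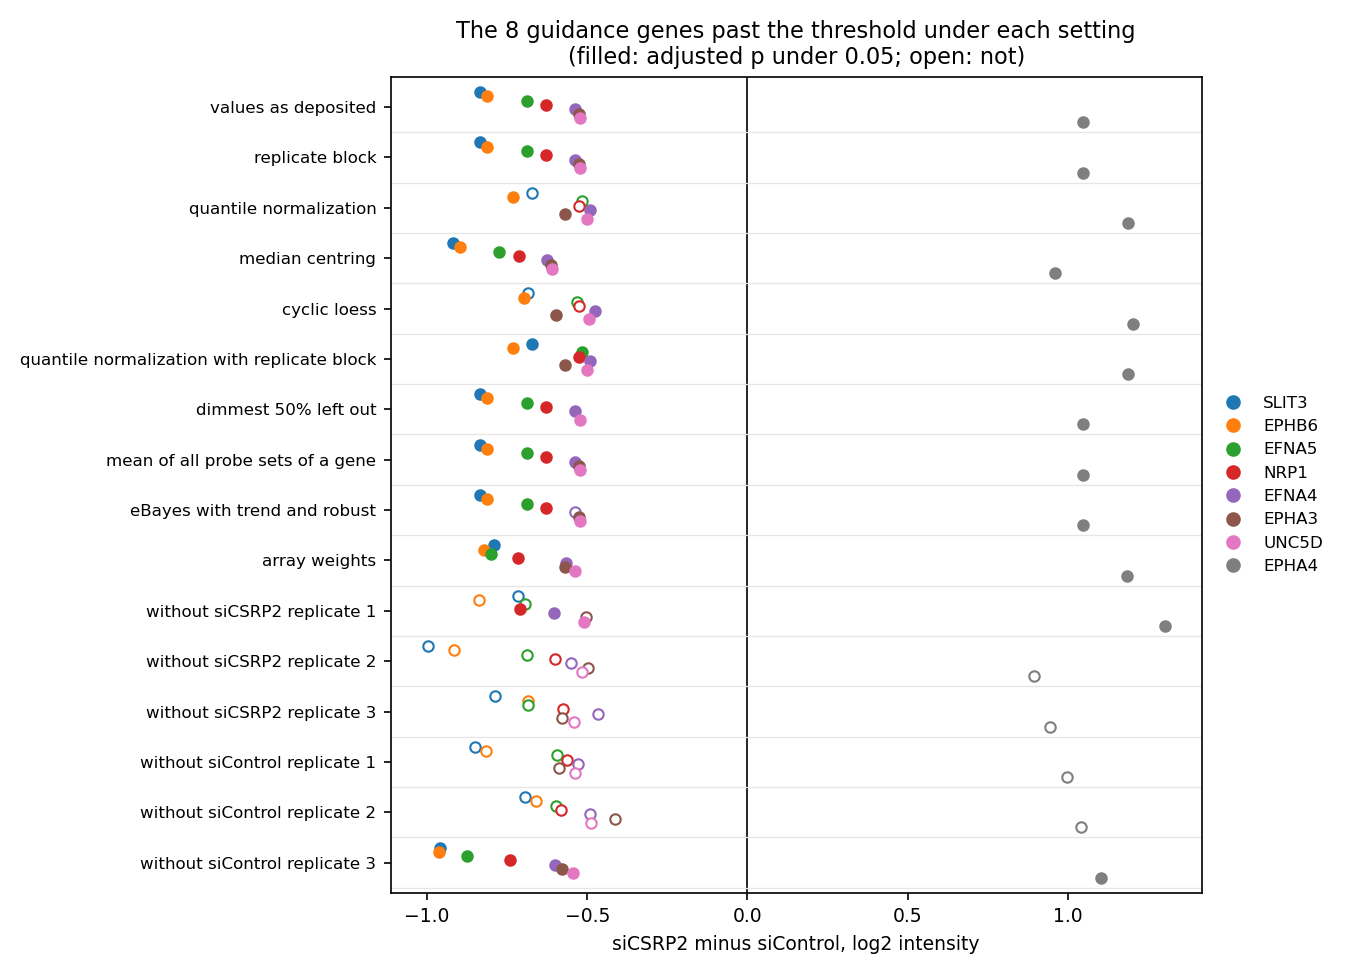
Log2 difference, siCSRP2 minus siControl, of the 8 genes that passed, under the values as deposited and each alternative (rows). Filled points have an adjusted p under 0.05 and open points do not. Every point keeps its side of 0, and all are open in the 4 rows that leave out siCSRP2 2, siCSRP2 3, siControl 1 or siControl 2. EPHA3 has no point where the dimmest 50% of genes were left out.

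Beyond the cues and receptors, 75 of 105 listed signalling partners were measured, and 7 fell (9.33%) while none rose, beside 6.54% and 0.8% of all genes. At an unadjusted p under 0.05, 22 were lower and 4 higher (limma), where 2583 and 940 of all 14884 genes were. With the replicate block 13 fell (17.3%) and 3 rose (4.0%), beside 13.1% and 2.67% of all genes. Of the 75 partners, 55 had a group mean above the median, among them the 7 that fell without the block. Of all genes with such a mean, 12.1% fell and 1.37% rose, and 24% and 4.58% with the block. The median difference of all such genes was -0.14. Without the block the falls of the partners lay in 2 of the 4 lists. Of 20 semaphorin and plexin partners, 4 fell, none rose and 16 did not pass, with a median of -0.16. Of 19 Slit and Robo partners, 3 fell, none rose and 16 did not pass, with a median of -0.26. None of 22 Eph and ephrin partners or 17 netrin, DCC and UNC5 partners passed, with medians of -0.09 and 0.13. At an unadjusted p under 0.05, 6 and 2 of these were lower, and 3 and 0 higher (limma).

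DPYSL3, a collapsin response mediator protein that relays semaphorin signals to the cytoskeleton, measured 5.46, 5.32 and 5.01 on siCSRP2 arrays, against 7.39, 7.36 and 6.84 on siControl arrays. It fell 3.82-fold (difference -1.94, SE 0.18, limma adjusted p = 0.00257). RRAS encodes R-Ras, a small GTPase switched off by the GAP domain of plexins, and measured 6.55, 6.77 and 6.45 on siCSRP2 arrays. On siControl arrays it measured 8.29, 8.27 and 8.29, nearly the same on each. RRAS fell 3.22-fold (difference -1.69, SE 0.12, limma adjusted p = 0.000854). Its relative RRAS2 was higher on all siCSRP2 arrays (5.87, 5.85 and 6.42) than on siControl arrays (5.18, 5.03 and 5.60), a difference of 0.78 that passed with the block (limma adjusted p = 0.00347) and just missed without it (0.0502).

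The other semaphorin and plexin partners that fell were CDK5, a kinase acting on collapsin response mediator proteins, and ARHGAP35, a GTPase-activating protein. CDK5 measured 3.28, 3.20 and 3.24 on siCSRP2 arrays, against 4.74, 4.70 and 3.73 on siControl arrays, with siControl 3 apart from the other controls (difference -1.15, SE 0.24, limma adjusted p = 0.0298). ARHGAP35 averaged 6.54 ± 0.17 and 7.35 ± 0.16 (SD, n = 3 each; difference -0.81, limma adjusted p = 0.0130). With the block L1CAM (-0.61), ARHGEF12 (-0.44) and LIMK1 (-0.47) fell as well.

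Among Robo partners, the GTPase-activating proteins SRGAP2 and SRGAP1 fell. SRGAP2 measured 3.43, 3.59 and 2.80 on siCSRP2 arrays and 4.16, 4.71 and 4.29 on siControl arrays (difference -1.11, SE 0.22, limma adjusted p = 0.0242). Close copies of this gene exist in the human genome, so its probes may not tell them apart. SRGAP1 averaged 3.67 ± 0.06 and 4.44 ± 0.29 (SD, n = 3 each; difference -0.77, limma adjusted p = 0.0229). It has 2 probe sets, of which the brighter is given. ENAH, an actin regulator bound by Robo receptors, fell by 0.48 (limma adjusted p = 0.0460). With the block DOCK1 (-0.64) and the Robo-linked deubiquitinase USP33 (-0.51) fell too. Of the Eph partners, SIPA1L1 fell (-0.61) and ABL2 (1.05) and GRB10 (0.41) rose with the block only, at limma adjusted p of 0.0147, 0.0209 and 0.0452. The groups overlapped for ABL2 and DOCK1. ABL2 also has 2 probe sets, of which the brighter is given.

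**Figure D4:**
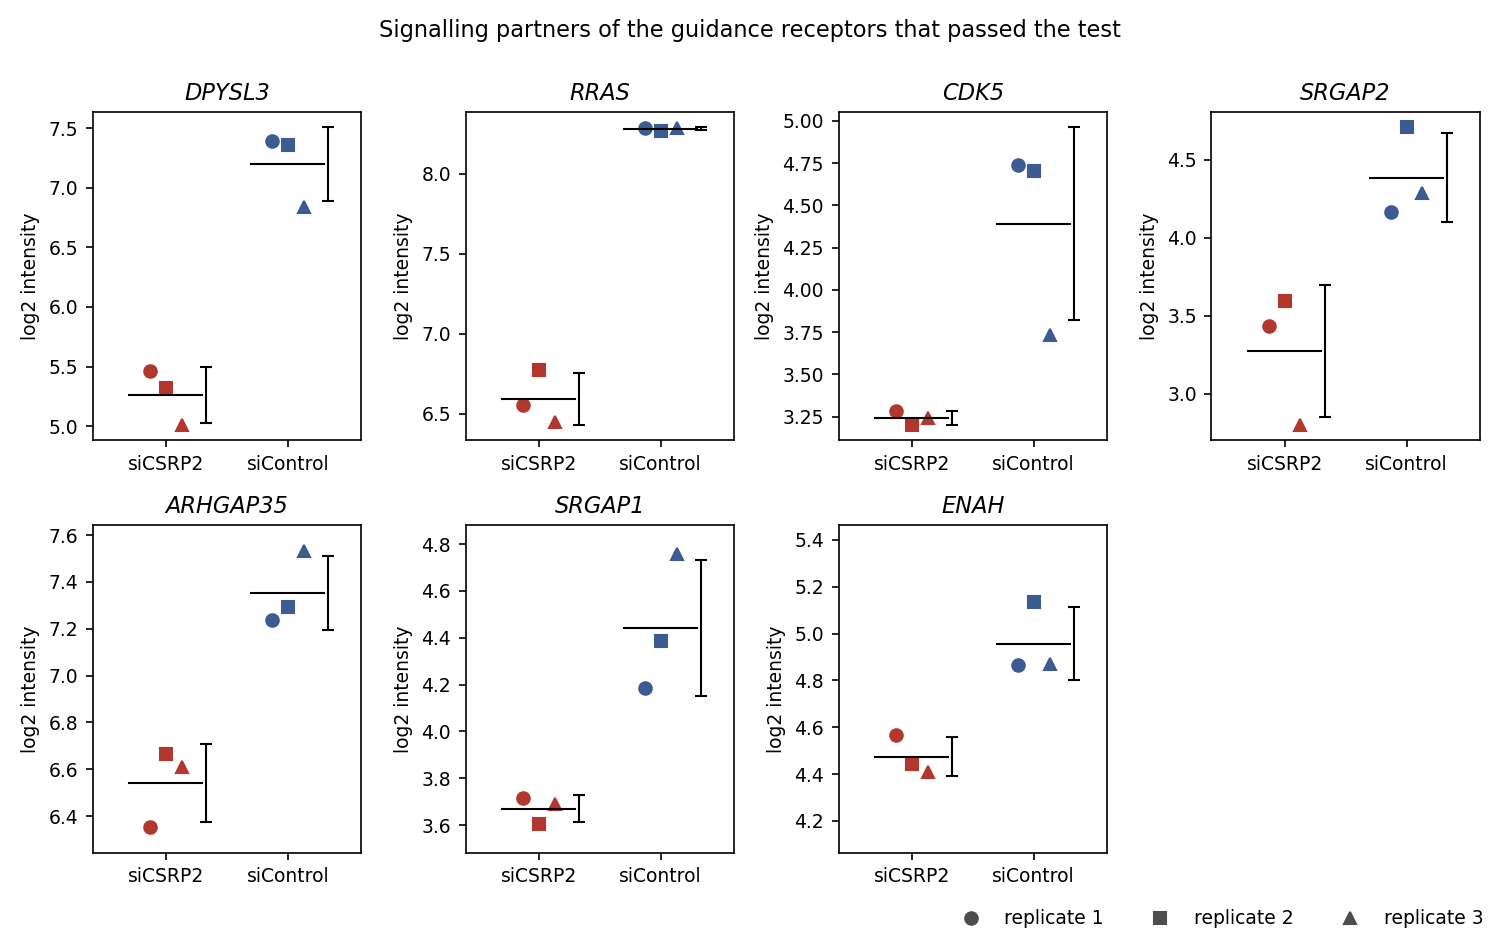
Log2 intensity of the 7 signalling partners that passed the test, on each siCSRP2 array (left) and siControl array (right). Symbols mark the replicate number, lines the group mean and bars 1 SD (n = 3), and each panel has its own axis. In all 7 panels the siCSRP2 arrays lie below the siControl arrays.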

How the data were processed

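Gene expression was measured on 6 Affymetrix HuGene 2.0 arrays, 3 per group, with groups and replicate numbers from the sample titles. The authors deposited 1 log2 intensity per probe set and array (base 2 judged from the values, 1.26 to 13.4). Per the submitters' processing notes, Partek was used. How background, summarisation and normalization were handled, and on which genome build, is not given in the sources used here. No background or detection values were used, so low intensities have no marked limit, and differences at dim levels can understate a change. Array number limits the precision.

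16098 of 53617 probe sets had 1 gene symbol in the platform annotation, none had several, and 37519 were unnamed here. All 16098 gene identifiers matched RefSeq (GRCh38.p14). Each of 14884 genes was represented by its brightest probe set on average. Groups were compared in limma 3.58.1 (R 4.3.3; lmFit and eBayes, group only, no trend, not robust, no filter), two-sided, adjusted by Benjamini-Hochberg over the 14884 genes, at a threshold of 0.05. The labels do not say that replicates were separate cultures, so p-values measure only how far these arrays vary, possibly for technical reasons. "Rose" and "fell" are used for genes past the threshold, in siCSRP2 relative to siControl, and dim means below the median of all gene means. No set test was run, and lists are described by counts and medians. The fit was tested on simulated data.

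Same-numbered arrays deviated together from their group means (r across genes 0.30, 0.19 and 0.32, and -0.26 to 0.05 for other pairs), each above 0.1. The pairing comes from the data, not the labels, and the fit with the replicate block is an alternative. Values on each array are given for guidance genes that pass with or without the block, or whose groups do not overlap with a log2 difference of at least 0.5, filled to 12 by smallest p. Partners are named where they pass. EPHA2, EPHB4, EFNA3, NTN4, RRAS2, the partners passing only with the block and the 4 promoters shown were chosen after their values were seen. Other alternatives were 3 rescalings, 1 with the block, a filter on dim genes, averaged probe sets, another variance model, array weights and each array left out. Members and lists were chosen with earlier results of these data known.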

Additional observations from a re-analysis of the deposited data

How the results depend on the processing

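The direction of each of the 12 guidance genes named by the rule held under all 15 alternatives in which the gene was fitted. EPHA4 (0.96 to 1.20), EPHB6, UNC5D and EPHA3 passed in each alternative that kept all arrays and held the gene. The number of guidance genes that fell, 7 in the values as deposited, was 10 with the replicate block, and 4 when the arrays were rescaled by quantiles or by cyclic loess. It was 8 after quantile normalization with the block, where PLXNA1 and PLXND1 did not pass. EPHA4 rose in each of these. The median over the guidance genes, -0.03, was -0.052 after quantile normalization, with or without the replicate block. It was -0.064 with cyclic loess and -0.11 with median centring. The median over all genes moved as well, from 0.019 as deposited to -0.016 after quantile normalization. It was -0.023 with cyclic loess and -0.067 with median centring. The guidance median was -0.30 over the 25 genes left without the dimmest 50%, where the median of all remaining genes was -0.15. With 1 array left out, 0 to 9 fell, 0 to 1 rose, and the median ran from -0.061 to -0.0053.

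Of the signalling partners, 7 fell and 0 rose in the values as deposited. With the replicate block 13 fell and 3 rose, with quantile normalization and the block 11 fell and 3 rose, with array weights 16 fell and 3 rose, and after median centring 13 fell. 1 rose after quantile normalization, cyclic loess, a filter on the dimmest 50% or a trended robust variance. With all probe sets of a gene averaged, 6 fell and 0 rose. Their median, -0.04, was -0.13 after median centring and -0.25 without the dimmest 50%, where the medians of all genes were -0.067 and -0.15. With 1 array left out, 2 to 13 fell and 0 to 3 rose, and the median ran from -0.08 to -0.03. Over all genes 1093 passed, and 2348 passed with the replicate block, 2924 with array weights, 876 after quantile normalization and 91 to 2620 with 1 array left out. Falls made up 89.1% of these calls as deposited, 76.0% after quantile normalization, 77.7% with cyclic loess and 73.9% after quantile normalization with the block. The causes were not tested, beyond the fewer arrays or genes of some fits. No background values were at hand. This limits what can be shown by the 22 genes with neither group mean above the median of gene means. It also holds for EPHA3, whose mean over all arrays lay just below that median (percentile 48.8).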

Other observations

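The 4 antisense transcripts left out of the guidance genes did not pass the test. For EPHA1-AS1 (-0.11, lower in siCSRP2 cells, limma adjusted p = 0.563) and SLIT1-AS1 the groups did not overlap. SLIT1-AS1 measured 2.44, 2.35 and 2.44 on siCSRP2 arrays, against 2.29, 2.25 and 2.28 on siControl arrays (log2 difference 0.14, limma adjusted p = 0.434). EPHA5-AS1 differed by 0.10 and UNC5B-AS1 by 0.05. All but EPHA5-AS1 and UNC5B-AS1 lay below 2.99, the median of all gene means, on every array.

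Relative to the siControl mean of each gene, the median over the guidance ligands was -0.07, -0.12 and -0.09 on siCSRP2 1, 2 and 3, and between -0.05 and 0.01 on the siControl arrays. The median over the receptors was -0.10, 0.02 and 0.05 on siCSRP2 1, 2 and 3, and between -0.02 and 0.05 on the siControl arrays. The median over all genes lay between -0.012 and 0.014 on the 6 arrays. A group mean above the median of gene means was found for 11 of the 17 ligands and 14 of the 28 receptors. Over all genes with such a mean the median difference was -0.14. Whether ligands and receptors differ beyond their brightness was not tested.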
